A study of Mus musculus with 56 samples.

Results

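Chemokine ligands are the small secreted proteins that steer leukocytes. Every gene named Ccl or Cxcl with a number, plus Cx3cl1 and Xcl1, was taken as a member, through the RefSeq accession of its probe. Of 40 such genes in the reference, 36 had a named probe on the array, among 20018 genes in all. Ccl21c, Ccl21d, Ccl27b and Cxcl11 had none. Where a gene had several probes, the one with the brightest mean sample signal in the tissue was read. For a comparison of tissues it was the probe brightest over the tissues compared.

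Male MutaMouse, a transgenic mutation-reporter strain, received the polycyclic aromatic hydrocarbon chrysene in olive oil by daily gavage for 28 days. Vehicle mice (D0) received olive oil only, and the dosed mice received 17.5 (D1), 50 (D2) or 150 (D3) mg/kg bw/day. All mice were about 14 weeks old, and lung, liver and forestomach were taken 72 h after the last dose. RNA came from random sections of whole tissue, so that fewer cells of a type and less RNA per cell cannot be told apart. There were 56 arrays from 19 mice. Lung had 5 D0, 5 D1, 3 D2 and 5 D3 arrays, while liver and forestomach each had 5, 5, 4 and 5. Mice 1 to 5 were D0, 6 to 10 D1, 11, 12, 13 and 15 D2 (mouse 11 without lung), and 16 to 20 D3. Each array held sample RNA in Cy5 and a reference pooled from 11 mouse cell lines in Cy3. Every value below is a log2 ratio of sample over that reference, so it compares 1 gene between arrays and not 1 gene with another.

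Chemokines share a fold held by cysteines near the amino end, whose spacing (CC, CXC, CX3C or a single C) gives the families their names. Homeostatic members such as Ccl21a and Cxcl13 place lymphocytes in lymphoid tissue, while inducible members such as Cxcl1, Cxcl5 and Ccl2 call in neutrophils or monocytes through G protein-coupled receptors. In the lung, epithelium and alveolar macrophages are known sources. In the liver, Kupffer cells and hepatocytes make several of them.

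Many members lie side by side. One run reads Cxcl5, Ppbp, Pf4, Cxcl3, Cxcl15, Cxcl1 and Cxcl2, and another reads Ccl5, Ccl9, Ccl6, Ccl3 and Ccl4. The first pair of neighbours, Cxcl15 and Cxcl1, and the second pair, Ccl9 and Ccl6, are shown because each pair stood higher in different tissues in the comparison of organs. Each line gives the bases from 250 before to 50 after the start of transcription, from RefSeq on GRCm38.p6. Capitals mark TATAAA or a kappaB-like motif, searched as GGG, then 3 bases of any kind, then TTCC, on either strand.
Cxcl15 (chr5:90794284-90794583, plus strand): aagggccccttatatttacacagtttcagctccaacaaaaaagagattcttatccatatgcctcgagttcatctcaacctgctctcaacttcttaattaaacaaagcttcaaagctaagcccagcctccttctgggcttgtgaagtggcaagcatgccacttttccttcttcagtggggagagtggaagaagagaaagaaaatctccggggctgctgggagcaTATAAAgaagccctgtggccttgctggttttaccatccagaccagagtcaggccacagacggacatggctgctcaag
Cxcl1 (chr5:90890995-90891294, plus strand): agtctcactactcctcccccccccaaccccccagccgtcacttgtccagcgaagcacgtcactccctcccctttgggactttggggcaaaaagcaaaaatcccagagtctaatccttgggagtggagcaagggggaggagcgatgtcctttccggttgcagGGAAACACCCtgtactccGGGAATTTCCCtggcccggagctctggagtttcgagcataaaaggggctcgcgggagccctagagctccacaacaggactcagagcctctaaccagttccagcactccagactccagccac
Ccl9 (chr11:83578587-83578886, minus strand): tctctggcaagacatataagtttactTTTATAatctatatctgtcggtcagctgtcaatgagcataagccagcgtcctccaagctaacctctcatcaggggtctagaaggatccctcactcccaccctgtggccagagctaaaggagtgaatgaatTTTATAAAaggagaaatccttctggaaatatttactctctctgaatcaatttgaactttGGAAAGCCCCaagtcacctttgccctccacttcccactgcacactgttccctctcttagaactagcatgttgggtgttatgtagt
Ccl6 (chr11:83593038-83593337, minus strand): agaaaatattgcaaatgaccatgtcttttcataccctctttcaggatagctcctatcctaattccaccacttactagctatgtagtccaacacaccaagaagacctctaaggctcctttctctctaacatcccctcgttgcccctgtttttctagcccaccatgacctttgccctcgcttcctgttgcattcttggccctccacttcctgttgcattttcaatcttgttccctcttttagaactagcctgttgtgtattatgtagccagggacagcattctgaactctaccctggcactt
The Cxcl1 window held 3 kappaB-like matches, at -89, -71 and -70, of which the last 2 overlap, whereas the Cxcl15 window held none and had a TATAAA at -27. The Ccl9 window had 1 kappaB-like match, at -35, and the Ccl6 window had neither motif. Over all 32851 promoters of this length, 5.56% held the kappaB-like letters and 13.6% held TATAAA. Among the 34 member promoters in the table, from 28 members, 7 and 10 did. In the same set, 3 held an interferon-response-like motif (GAAA, 2 bases of any kind, GAAA, in 3.44% of all promoters) and 15 held GCGTG, the core of the dioxin response element (32.4%). These are matches of letters and were not measured as binding.

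Lung gave the fullest view of the family. A probe was tested in a tissue if 3 or more of its arrays had Cy5 well above background, which left 29 members in lung, 20 in liver and 26 in forestomach, with 19 in all of them. In lung, 26 members were above background on every array, against 16 in liver and 5 in forestomach. Ccl1, Ccl20, Ccl22 and Ccl26 were not well above background on any of the 56 arrays. Ccl28 was above background on 2 forestomach arrays, Cxcl2 on 1 liver array and Cxcl3 on 1 lung array, so that these 7 members were tested nowhere. The forestomach arrays fell into slides of unequal brightness. On slide 1 (7 arrays), 39.0 to 50.2% of probes were above background, against 23.5 to 33.4% on slide 2 (5 arrays) and 18.1 to 28.7% on slide 3 (7 arrays). Lung slides ranged from 47.6 to 55.2% and liver slides from 33.2 to 45.2%. Each slide held 1 tissue.

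Lung stood above both other tissues in 12 of 29 members (14.4% of all probes did so), liver in 7 of 27 (14.8% of probes) and forestomach in 2 of 27 (9.64% of probes), where a call required a 1.5-fold difference and a p, adjusted over every probe, of 0.05 or less (limma, doses weighted equally). Between lung and liver, 15 of 29 members were higher in lung (background 25.2% of all probes tested) and 10 higher in liver (background 21.5%). Of the 15, 6 (Ccl8, Ccl11, Ccl12, Ccl17, Cxcl15 and Cxcl17) were above background on no liver array and were tested through lung alone. Between lung and forestomach, 14 were higher in lung (background 18.6%), among them Cxcl15 with no forestomach array above background, and 6 in forestomach (background 17.9%). One of these 6, Cxcl1, was above background on 18 of 18 lung arrays and 0 of 19 forestomach arrays, so that its higher forestomach ratio (-3.07 against -3.91) is no level there. Between liver and forestomach, 8 of 27 were higher in liver (background 19.0%) and 10 in forestomach (background 22.5%), of which 1 (Cxcl1) and 5 (Ccl8, Ccl11, Ccl12, Cxcl5 and Cxcl17) were above background on no array of the lower tissue. These directions rest on the scaling. When each array was instead centred on its median, the median of all probes for lung minus forestomach rose from 0.01 to 1.06 and that for lung minus liver from 0.03 to 0.74. The share of all calls that were higher in lung then went from 51.0 to 95.4% and from 53.9 to 89.8%, and the members split 25 against 1 and 21 against 2. Lung then stood above both other tissues in 21 members (51.9% of probes), liver in 2 (6.45%) and forestomach in 1 (2.31%). For liver minus forestomach the same centring moved the median from -0.03 to 0.12 and the share higher in liver from 45.8 to 73.2%.

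**Figure D1:**
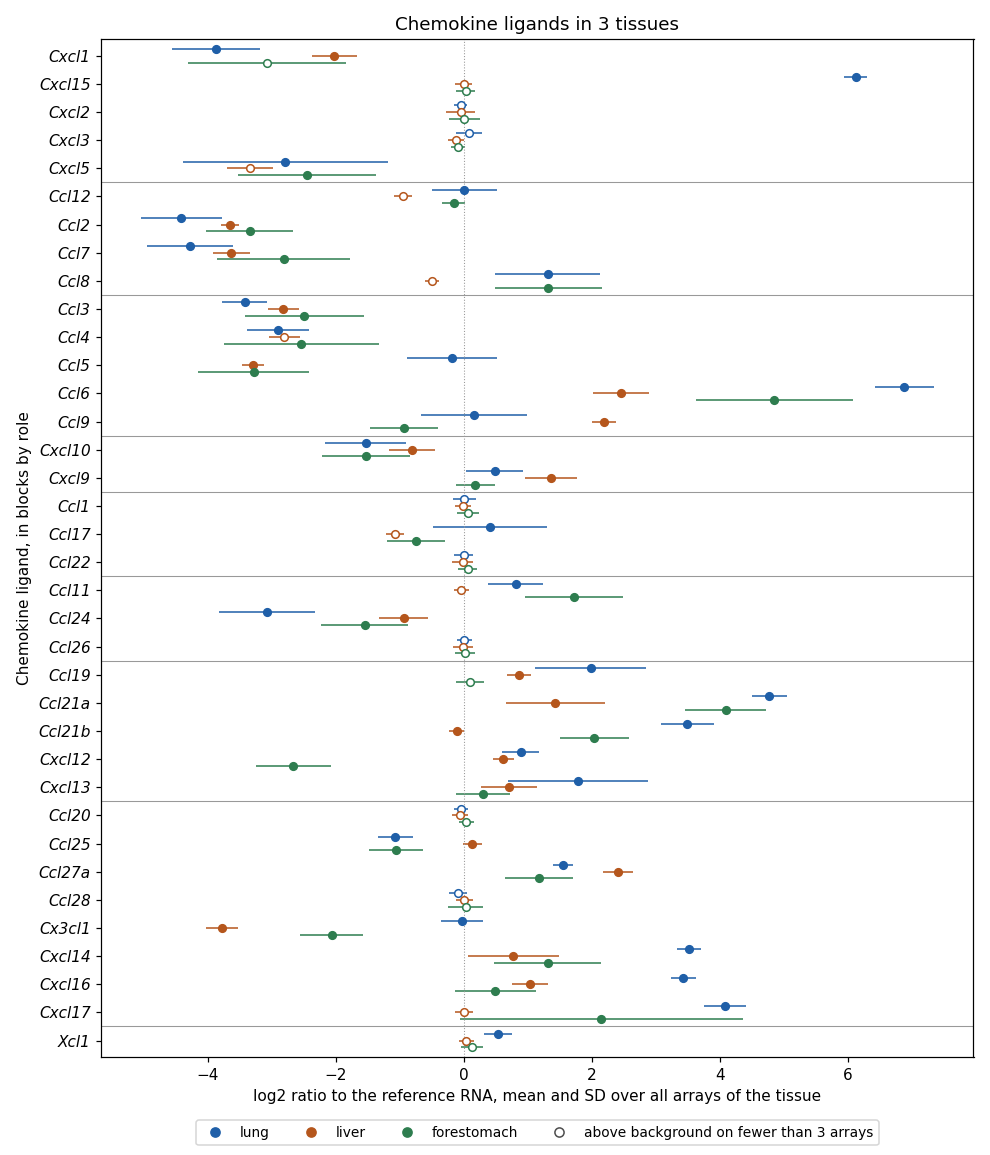
Log2 ratio to the reference of each chemokine ligand in lung (18 arrays), liver (19) and forestomach (19). Points are means and bars are SD over arrays, and open points were well above background on fewer than 3 arrays; lung Cxcl15 lies at 6.12, while its liver and forestomach points are open and near 0.

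Cxcl15, known as lungkine and made by airway and alveolar epithelium, was above background in lung alone. Its log2 ratio was 6.12 ± 0.18 in lung (SD, n = 18), with the lowest array at 5.79, against 0.00 ± 0.13 in liver and 0.03 ± 0.15 in forestomach (SD, n = 19 each), where no array was well above background. Those ratios are background over background, so no fold was taken from them. In normalized Cy5 signal alone, without the reference channel, lung was at least 195-fold above liver and at least 189-fold above forestomach. Such a bound sets the bright tissue against the lowest signal that counted as above background. Every sample was in Cy5, so a fixed dye bias of the probe is on both sides. Without the reference channel the bound rests on the scaling between arrays, and each slide held 1 tissue. Ppbp and Pf4, the platelet chemokines between Cxcl5 and Cxcl3, also had their highest ratios in lung. Ppbp stood at 4.17 ± 0.56 in lung (SD, n = 18) and was above background on 1 of 19 liver arrays, too few for a level there. Pf4 stood at -0.51 ± 0.36 in lung and -3.70 ± 0.15 in liver (SD, n = 18 and 19).

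Of the 6 epithelial and endothelial members tested, 4 led in lung, while Ccl25 and Ccl27a led in liver. With array medians centred neither was called higher in liver than in lung, and Ccl27a was lower there, by -0.68. Cxcl16, a membrane-bound ligand for Cxcr6 that also takes up oxidised lipid, was 3.43 ± 0.19 in lung and 1.03 ± 0.28 in liver (SD, n = 18 and 19). The log2 difference was 2.40 (SE 0.14, limma adjusted p = 2.6e-21). Cxcl14, an epithelial chemokine, exceeded its next tissue, forestomach, by 2.19 (SE 0.22, adjusted p = 1.8e-12). Cx3cl1, the membrane-anchored fractalkine of endothelium, did so by 2.02 (SE 0.11, adjusted p = 2.0e-21). Cxcl17, a mucosal chemokine, was above background on all 18 lung arrays, 10 of 19 forestomach arrays and no liver array. In Cy5 signal alone lung was at least 20.0-fold above liver. Its difference from forestomach (1.85) averages arrays of 2 kinds, for on the 10 forestomach arrays above background it was 3.06 to 5.29 (median 3.94), beside 3.49 to 4.72 in lung.

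Ccl5, the T cell product RANTES, was higher in lung than in forestomach by 3.08 (SE 0.22, adjusted p = 2.9e-17). Its ratio was -0.18 ± 0.70 in lung, -3.29 ± 0.17 in liver and -3.28 ± 0.87 in forestomach (SD, n = 18, 19 and 19). Ccl6, a macrophage and neutrophil product, stood in the order lung 6.88 ± 0.46, forestomach 4.85 ± 1.22 and liver 2.45 ± 0.44. The lung exceeded forestomach by 2.02 (SE 0.26, adjusted p = 9.3e-10). Its neighbour Ccl9, also a macrophage product, had another order, with liver at 2.19 ± 0.19, lung at 0.16 ± 0.83 and forestomach at -0.93 ± 0.53. The liver exceeded lung by 2.08 (SE 0.19, adjusted p = 2.8e-14), a difference that was 0.86 with array medians centred.

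Most lymphoid-homing members were also highest in lung. Ccl21a, which guides T cells and dendritic cells through Ccr7, had a log2 ratio of 4.77 ± 0.27 in lung, 4.09 ± 0.63 in forestomach and 1.43 ± 0.77 in liver (SD, n = 18, 19 and 19). Lung exceeded forestomach by 0.69 for Ccl21a, 1.46 for Ccl21b, and exceeded liver by 1.08 for Ccl19 and 1.03 for Cxcl13, the B cell attractant. On forestomach slides 1 to 3 the means were 4.65, 4.06 and 3.54 for Ccl21a, and 2.49, 1.98 and 1.63 for Ccl21b (lung 3.49). On the brightest slide Ccl21a thus lay close to its lung mean. The Ccl19 value is that of the brightest of its 3 probes over lung and liver together. The others read 0.82 and -0.03 in lung and 0.59 and -0.13 in liver. Ccl17 exceeded its next tissue, forestomach, by 1.12. It was above background on 6 of 19 forestomach arrays, all on slide 1, where its mean was -1.26, against -0.56 and -0.38 on slides 2 and 3. Ccl21a, Ccl21b and Ccl27a have near-identical copies in the genome, so that their probes may read more than 1 gene. Cxcl12, which holds progenitor cells in marrow through Cxcr4, was 3.54 higher in lung than in forestomach with the brighter of its probes. The other probe read -3.07 in lung, -1.07 in liver and -2.11 in forestomach, a different order, so that Cxcl12 is uncertain.

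In liver the leading members were Ccl9, Ccl25, Cxcl1, Cxcl9, Ccl27a, Cxcl10 and Ccl24. With array medians centred, only 2 members, Ccl9 and Cxcl9, were called higher in liver than in lung. The leads of the others over lung thus rest on the deposited scaling. Ccl25, the gut and thymus ligand of Ccr9, exceeded its next tissue by 1.18 (SE 0.09, adjusted p = 1.3e-16). Cxcl9, an interferon-induced ligand of Cxcr3, exceeded lung by 0.90 (SE 0.14, adjusted p = 4.9e-08), where 7 of 18 arrays were above background, and its second probe read 0.61 in liver and 0.17 in lung. Cxcl1 exceeded lung by 1.90 (SE 0.28, adjusted p = 3.7e-08). No forestomach array had Cxcl1 above background, so that only a bound of at least 2.05-fold in Cy5 signal alone can be given there. Ccl27a, an epidermal chemokine, was 0.86 higher in liver than in lung by the deposited scaling (SE 0.11, adjusted p = 1.9e-09), but -0.68 with array medians centred. A less bright probe read 1.40 in lung and 0.61 in liver, against 1.55 and 2.41 for the probe used.

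Forestomach led in Ccl11 and Ccl7. Ccl11, the eosinophil attractant eotaxin, stood at 1.72 ± 0.76 in forestomach, 0.81 ± 0.43 in lung and below background in liver (SD, n = 19 and 18). It was 0.92 higher than in lung (SE 0.17, adjusted p = 4.1e-06), and 1.81 higher on the brightest slide alone. Ccl7, a monocyte attractant, was 0.82 above liver (SE 0.24, adjusted p = 0.00199). Yet Ccl7 was above background on 7 of 19 forestomach arrays, all on slide 1, where its mean was -4.01, against -2.47 and -1.85 on slides 2 and 3. On slide 1 alone the difference from liver turned to -0.41. Ccl3, Ccl4, Ccl5, Cxcl1 and Cxcl5 had the same slope over the slides, with Ccl4 at -4.01, -1.94 and -1.49. Several high ratios also came nearer 0, with Ccl11 at 2.55, 1.51 and 1.05 and Ccl6 at 5.55, 5.25 and 3.88. Cxcl17 and Cxcl13 did not have this order. Low and high ratios in forestomach thus moved with array brightness.

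Among 18 signalling and 5 atypical chemokine receptors, 14 stood higher in lung than in both other tissues, and none did so in liver or forestomach (14.4, 14.8 and 9.64% of all probes). With array medians centred the counts were 15, 0 and 0 (51.9, 6.45 and 2.31% of probes). Ccr7, the receptor for Ccl19 and Ccl21, led with 3.54 over liver (SE 0.10), followed by the scavenger receptor Ackr2 at 3.43 (SE 0.19) and Ccr6 at 3.06 over forestomach (SE 0.08). Of the 18 signalling receptors, 15 were tested within lung, 7 within liver and 8 within forestomach, so that several leads are over background. Ccr7 was above background on 5 of 19 liver and 1 of 19 forestomach arrays. The counts were 0 and 1 for Ccr6, 0 and 0 for Cxcr1, and 1 and 0 for Cxcr5. The Ccr6 difference is therefore no fold between levels. Markers of the labelled tissues were high on their arrays. The mean log2 ratio of hepatocyte genes was 6.96 to 7.36 over liver arrays, that of alveolar type 2 genes was 5.93 to 6.39 over lung arrays, and that of keratinocyte genes was 3.58 to 5.73 over forestomach arrays. The last list was also high in the lungs of mice 17 and 19, at 3.60 and 4.17.

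No chemokine ligand passed the call at any dose of chrysene in any tissue. In lung, 0 of 29 members were called at D1 and D2, where the background was 0% of probes, and 0 at D3, where 0.127% of probes were called. In liver, 0 of 20 were called at each dose (background 0%). In forestomach, 0 of 26 were called at each dose, against a background of 0% at D1 and D2 and 0.00728% at D3. A trend over the dose steps also called 0 members, with a background of 0.169% in lung, 0% in liver and 0.0400% in forestomach. The smallest adjusted p of any member was 0.112, for the trend in lung, by limma. With an unadjusted p of 0.05 or less as the level, lung had 1 of 29 members at D1 (background 5.88%), 3 at D2 (background 6.12%), 7 at D3 (background 16.2%) and 8 for the trend (background 17.3%). Liver had 1 of 20 at D1 (background 3.61%), 1 at D2 (background 3.79%), 0 at D3 (background 4.79%) and 0 for the trend (background 5.43%). Forestomach had 0 of 26 each time, with backgrounds of 4.16, 7.53, 9.24 and 9.18%. With the mean of 10 glandular stomach genes in the fit, 1 was lower and 3 were higher at D3 (background 7.39 and 7.12%).

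The data could bound the change at D3 for some members only. The 95% interval of the log2 difference between D3 and D0 lay within a 1.5-fold change for 13 of 20 members in liver, 9 of 29 in lung and 2 of 26 in forestomach. The median width of these intervals was 0.67, 1.17 and 1.74 on the log2 scale. The D3 differences of the members had a median of 0.03 in liver, -0.18 in lung and -0.25 in forestomach, beside -0.01, -0.03 and 0.00 over all probes. A test of whether the D3 effect differed between tissues called 0 members (background 0% for lung against liver, 0.704% for lung against forestomach and 0.0807% for liver against forestomach). At the unadjusted level there were 1, 3 and 1 members (background 5.23, 12.9 and 9.95%). By adjusted p the nearest were 3 between lung and forestomach. These were Ccl6 with a difference of -1.81 (adjusted p = 0.204), Ccl12 with -0.69 (adjusted p = 0.226) and Cxcl5 with -2.00 (adjusted p = 0.299). The lowest unadjusted p by limma, 0.00804, was that of Cxcl5 between lung and liver (-2.43, adjusted p = 0.764). The comparisons of D1, D2 and D3 share the D0 arrays.

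**Figure D2:**
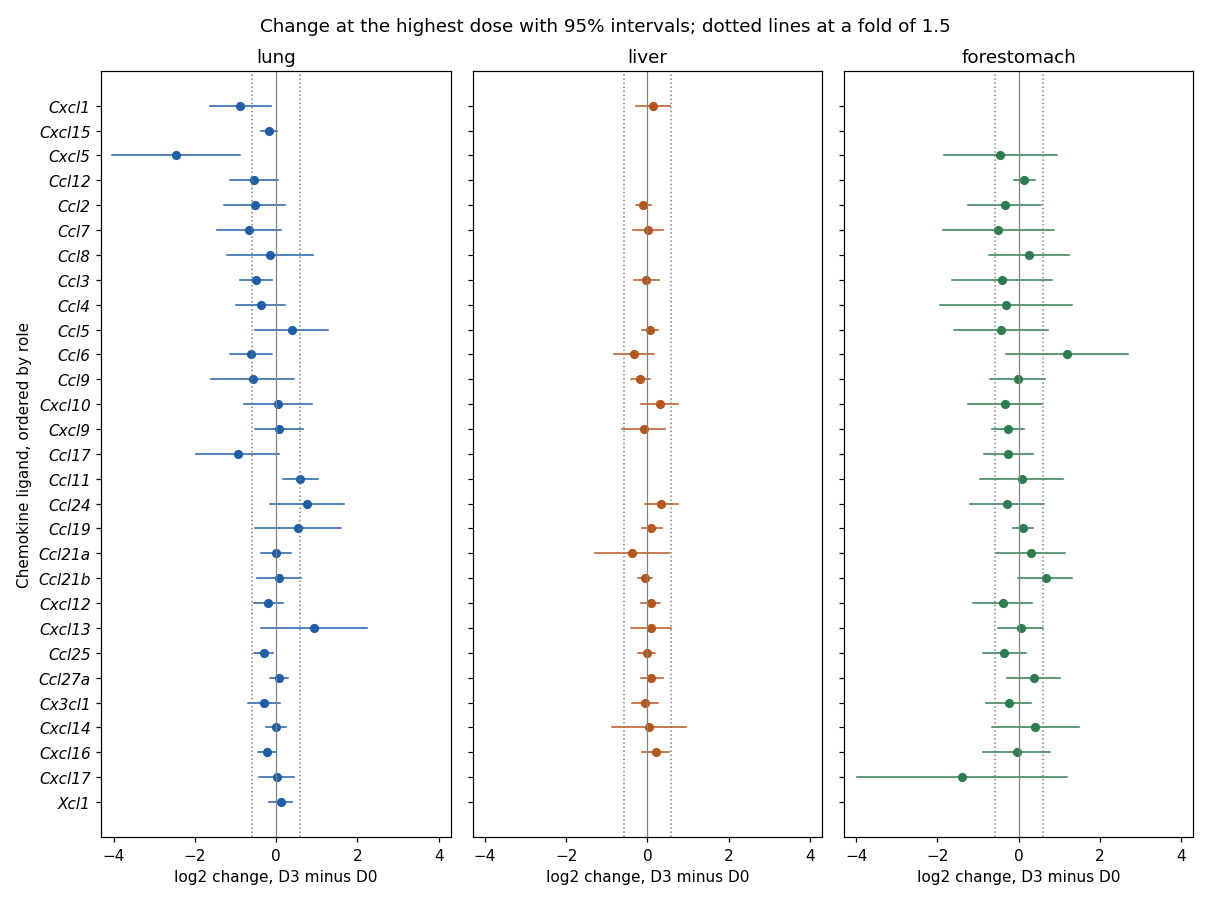
Log2 difference between D3 (150 mg/kg bw/day) and D0 for each tested chemokine ligand in lung, liver and forestomach. Points are limma estimates, bars are 95% intervals and dotted lines mark a 1.5-fold change; the lung Cxcl5 interval runs from -4.04 to -0.89, and most liver intervals lie between the lines.

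In lung the D3 differences ran from -2.47 to 0.94, with 12 members above and 17 below 0 (58.6%, beside 57.5% of all probes). With an unadjusted p of 0.05 or less as the level, 6 of 29 members were lower (20.7%, background 10.1%) and 1 was higher (3.45%, background 6.05%). With array medians centred 1 was lower (background 1.06%) and 2 were higher (background 13.9%). Grouped by role, all 3 neutrophil-attracting CXC members (median -0.88) and all 4 monocyte-attracting CC members (median -0.54) were below 0. Both eosinophil-attracting members were above 0 (median 0.69). The lymphoid-homing members were divided, 3 above and 2 below.

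Cxcl5, a neutrophil attractant made by lung epithelium, had the widest difference. Its log2 ratios were -2.99, -2.06, -0.60, -2.56 and 2.12 in D0 mice 1 to 5, and -3.35, -2.44, -3.75, -0.85 and -3.82 in D1 mice 6 to 10. In D2 they were -3.78, -3.55 and -4.18, the last not well above background, and in D3 they were -3.69, -3.15, -3.71, -4.13 and -3.75. Every D3 array lay below every D0 array (1.94% of all probes did so), whereas D0 and D1 overlapped. Against D0, Cxcl5 was -1.62 at D1 (unadjusted p = 0.0438), -2.62 at D2 (unadjusted p = 0.00735) and -2.47 at D3 (SE 0.75, unadjusted p = 0.00410, adjusted p = 0.151, limma). Part of this difference came from mouse 5, whose ratio stood 5.57 above the median of the 18 lungs. Without mouse 5 the D1 difference was -0.79 (unadjusted p = 0.157), the D2 difference -1.78 and the D3 difference -1.63 (adjusted p = 0.197 at D3), and without mice 3 and 5 it was -1.15 (adjusted p = 0.336). Within the 3 lung slides it was -0.62, -1.36 and -4.48, and mice 3 and 5 were both on the last of these. With the slide as a block it was -2.54 (adjusted p = 0.150).

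Cxcl1, the other inducible neutrophil attractant that was measured in lung, moved with Cxcl5. Its D0 ratios were -4.07, -4.14, -2.75, -3.63 and -1.81, and its D3 ratios were -4.07, -4.19, -4.17, -4.39 and -3.98. Mice 3 and 5 again stood highest, as did mouse 9 at -2.95 among the D1 mice, and the D3 values overlapped D0. The D3 difference was -0.88 (SE 0.36, unadjusted p = 0.0243, adjusted p = 0.247), and it was -0.21 without mice 3 and 5. Cxcl15 did not share this pattern. It was 6.31, 6.37, 5.97, 6.31 and 6.03 in D0 and 5.98, 6.13, 6.12, 5.94 and 5.94 in D3, a difference of -0.18 (SE 0.09, unadjusted p = 0.0761). Mice 3 and 5 had its lowest D0 values, and without them the difference was -0.31 (unadjusted p = 0.00465, adjusted p = 0.173, limma).

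**Figure D3:**
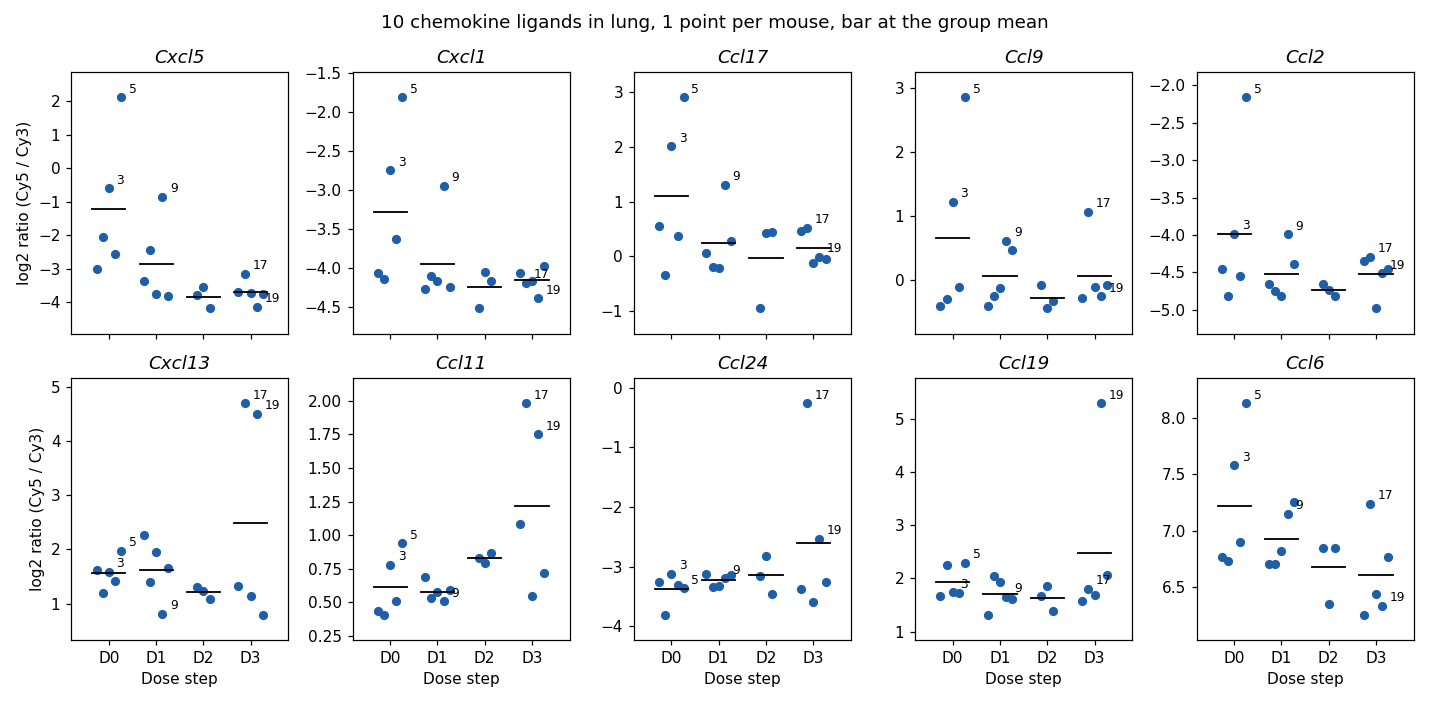
Log2 ratio to the reference of 10 chemokine ligands in lung by dose step (D0 to D3), 1 point per mouse with the group mean as a bar. Mice 3, 5, 9, 17 and 19 are labelled; mouse 5 is the high D0 point of Cxcl5 at 2.12, and mice 17 and 19 are the high D3 points of Cxcl13 at 4.69 and 4.50.

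The macrophage-derived CC members had the same high D0 mice. Ccl6 ratios were 6.77, 6.73, 7.58, 6.90 and 8.13 in D0 and 6.26, 7.24, 6.44, 6.34 and 6.77 in D3, for a difference of -0.61 (SE 0.25, unadjusted p = 0.0242, adjusted p = 0.247). Ccl3, a macrophage inflammatory protein, was -3.45, -3.59, -3.08, -3.28 and -2.29 in D0 and -3.45, -4.06, -3.38, -3.76 and -3.54 in D3. Its difference was -0.50 (SE 0.18, unadjusted p = 0.0147, adjusted p = 0.219). In both genes D0 and D3 overlapped, and without mice 3 and 5 the differences were -0.19 and -0.20. Ccl17, a Ccr4 ligand of dendritic cells, was 0.55, -0.33, 2.01, 0.38 and 2.91 in D0 and 0.46, 0.52, -0.12, -0.01 and -0.05 in D3. Its difference of -0.94 (SE 0.49, unadjusted p = 0.0689) became -0.04 without mice 3 and 5. Cxcl16 was 3.59, 3.43, 3.36, 3.34 and 3.81 in D0 and 3.14, 3.35, 3.31, 3.04 and 3.55 in D3, with overlap and a difference of -0.23 (SE 0.11, unadjusted p = 0.0479, adjusted p = 0.304). Without mouse 5 the Cxcl16 difference was -0.15 (limma, unadjusted p = 0.156).

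The monocyte attractants rested largely on mouse 5. Ccl2, the main ligand of Ccr2, was -4.46, -4.81, -3.98, -4.55 and -2.16 in D0 and -4.35, -4.29, -4.98, -4.51 and -4.45 in D3. Without mouse 5 its difference went from -0.53 to -0.07, that of Ccl7 from -0.67 to -0.19 and that of Ccl12 from -0.55 to -0.20. Ccl2, Ccl7, Ccl11, Ccl12 and Ccl8 are neighbours in 1 run. Ccl11 went the other way from the monocyte attractants.

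Mouse 5, a vehicle mouse, stood apart in lung. It had the highest lung value of 18 mice in 13 of 29 members (44.8%, beside 9.61% of all probes). It lay more than 1 log2 unit above the median of the 18 mice in 12 members (41.4%, beside 0.741% of probes). After Cxcl5, the excess was 2.98 for Ccl9, 2.58 for Ccl17, 2.55 for Ccl7, 2.38 for Ccl2, 2.32 for Cxcl1 and 2.02 for Ccl8, and it was between 1.16 and 1.93 for Ccl12, Cxcl10, Ccl4, Ccl6 and Ccl3. Mouse 3, also D0, was more than 1 above the median in 4 members (Cxcl5, Ccl17, Cxcl1 and Ccl9), and mouse 9, a D1 mouse, in 3 (Cxcl5, Cxcl1 and Cxcl10). These are 13.8% and 10.3% of members, beside 0.197% and 0.169% of probes. Among the other fixed lists, mouse 5 had the highest mean for 13 inflammatory cytokines (0.45, others -0.29 to 0.04), for 8 macrophage genes (2.53, others 1.48 to 2.47), for 18 chemokine receptors (1.36, others 0.68 to 1.24) and for 10 glandular stomach genes (1.37, others 0.75 to 1.29). It had the lowest for 5 lymphatic endothelium genes (1.17, others 1.27 to 1.74) and for 5 atypical receptors (2.07, others 2.14 to 2.54). The mean of 6 neutrophil genes was 1.85, inside the range of all lungs from 1.32 to 2.23. The neutrophil genes S100a8 and S100a9 were 1.77 and 7.04, and Il1b, an inflammatory cytokine, was 2.75, each within the range of the other mice. Il6 was -1.89, above the others (-2.48 to -2.05), but was above background on 2 of 18 lung arrays. In the liver of mouse 5, Ccl6 was the highest of 19 at 3.69, but Cxcl1 was the lowest at -2.46. The part of these values in the dose differences was measured only by leaving the mouse out. Without mice 3 and 5, 15 of 29 members were lower at D3 (beside 57.3% of probes), the median was -0.04, and 3 were lower and 1 higher with an unadjusted p of 0.05 or less (background 9.60 and 4.32%).

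**Figure D4:**
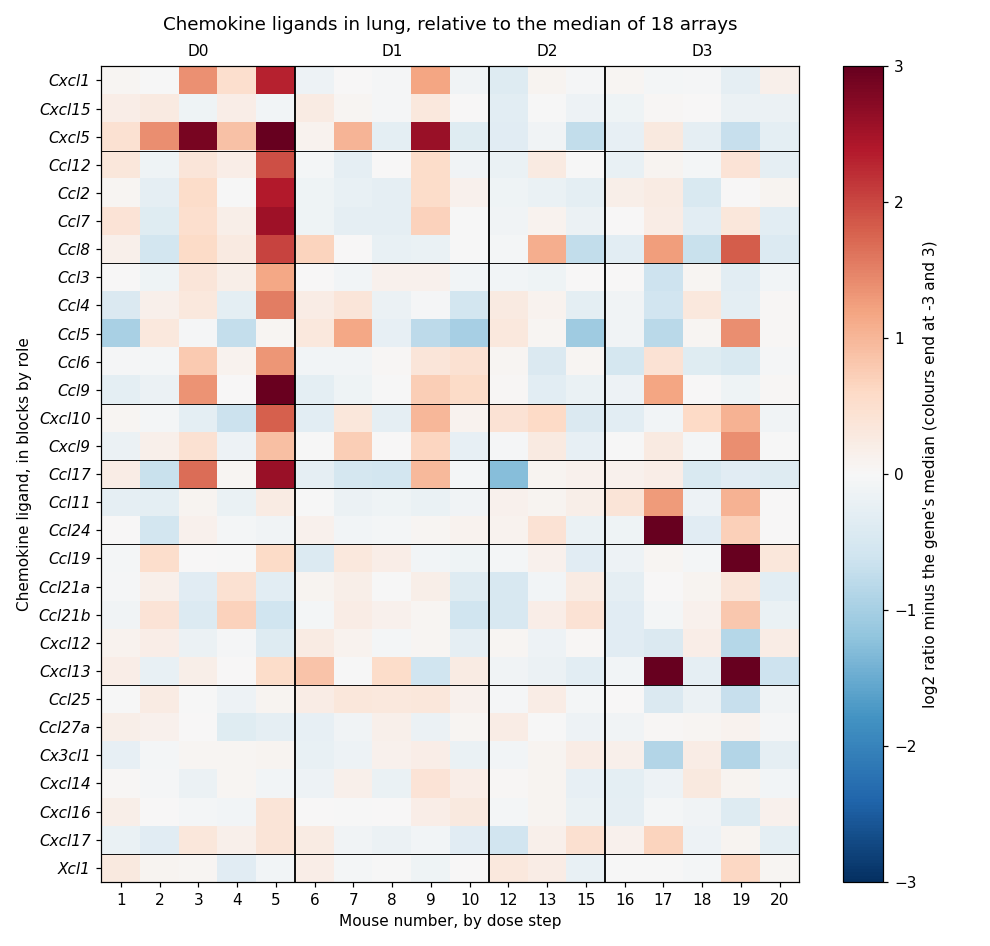
Each tested chemokine ligand (29 lines of the map) in each of 18 lungs (columns, ordered by dose), as the log2 ratio minus the gene's median over the lungs; colours end at 3 above or below. Mouse 5 is high in 12 members by more than 1, while mice 17 and 19 are high in 5 and 7 members.

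The members that stood highest above 0 at D3 rested on mice 17 and 19. Ccl11 was 0.44, 0.41, 0.78, 0.51 and 0.94 in D0 and 1.08, 1.98, 0.55, 1.75 and 0.72 in D3, with overlap between the groups. The difference was 0.60 (SE 0.21, unadjusted p = 0.0105, adjusted p = 0.196), and 0.17 without mice 17 and 19. Cxcl13 was 1.62, 1.19, 1.59, 1.42 and 1.97 in D0 and 1.33, 4.69, 1.15, 4.50 and 0.80 in D3. Its difference of 0.94 (SE 0.62, unadjusted p = 0.147) turned to -0.46 without these mice. Ccl24, another eosinophil attractant, was -3.37, -0.26, -3.59, -2.53 and -3.25 in D3, and its difference went from 0.77 to -0.04. Ccl19 was 5.30 in mouse 19 and between 1.58 and 2.06 in the other D3 mice, and its difference went from 0.54 to -0.17.

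These lungs also had high ratios of genes of other tissues. The mean log2 ratio of 11 skeletal muscle genes was 5.39 in mouse 17 and 5.55 in mouse 19, and -1.08 to -0.38 in the other 16 lungs. That of 10 keratinocyte genes was 3.60 and 4.17, against -0.75 to -0.45. Acta1, the muscle actin, was 7.07 and 7.39 (others -2.63 to 1.57), and Krt13, a keratin of stratified epithelium, was 5.67 and 6.01 (others -2.41 to -2.06). Mouse 19 also had a mean of 2.48 for 8 B cell genes and 1.14 for 8 T cell genes. The mean of 6 eosinophil and mast cell genes was 1.40 in mouse 17 and 1.21 in mouse 19, against 0.70 to 1.19 in the others. Members more than 1 above the median numbered 5 in mouse 17 (17.2%, beside 2.94% of probes) and 7 in mouse 19 (24.1%, beside 3.39%). Ccl25, lower at D3 by 0.31 in the fit of all mice (log2 difference -0.31, SE 0.11, unadjusted p = 0.0142), had its lowest values in these mice, -1.53 and -1.77, and was -0.12 without them. Cx3cl1 likewise was -0.80 in both and between -0.19 and 0.29 in the other D3 mice. Without mice 17 and 19, 23 of 29 members were lower at D3 (beside 49.5% of all probes), the median was -0.17, and 4 were lower and 0 higher with an unadjusted p of 0.05 or less (background 4.97 and 4.98%). Ccl8, a monocyte attractant high in mouse 5 (3.07) and in mice 17 and 19 (2.30 and 2.87), moved from -0.16 to -0.96 when the last 2 were left out and to 0.23 when mouse 5 was.

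At the lower doses in lung, Cxcl5, Cxcl1 (-0.97, unadjusted p = 0.0303) and Cxcl15 (-0.25, unadjusted p = 0.0312) were the 3 members with an unadjusted p of 0.05 or less at D2. Without mouse 5 the Cxcl1 value was -0.60 (unadjusted p = 0.0747), and without mouse 12 the Cxcl15 value was -0.18 (unadjusted p = 0.163). At D1 Cxcl5 was the only one, and it was lost without mouse 5. Dose followed the position on the slide in lung, where all D0 arrays lay in 1 column, so that dose and array column cannot be told apart there.

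In liver no member reached the unadjusted level at D3. The members with the lowest p at D3 were Ccl24 at 0.34 (SE 0.20, unadjusted p = 0.102), Ccl9 at -0.18 (SE 0.11, unadjusted p = 0.127), Cxcl10 at 0.30 (SE 0.21), Ccl6 at -0.32 (SE 0.24) and Cxcl16 at 0.21 (SE 0.16). All had an adjusted p of 1.00 by limma. Ccl9 was 2.14, 2.33, 2.26, 2.45 and 2.22 in D0 and 2.29, 2.30, 1.93, 1.98 and 2.02 in D3, with overlap. Ccl6 was 2.43, 2.20, 2.73, 2.39 and 3.69 in D0 and 2.37, 2.20, 2.50, 2.42 and 2.32 in D3. The high D0 value was again mouse 5, and without it the difference was -0.07.

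Ccl24 had the lowest unadjusted p at D1 in liver. It was -0.94, -1.15, -0.78, -1.58 and -1.58 in D0 and -0.40, -0.30, -0.86, -0.68 and -1.05 in D1, a difference of 0.55 (unadjusted p = 0.0125). The D2 and D3 values ran from -1.67 to -0.60 and overlapped D0. At D2 Ccl6 was the 1 member at this level (-0.59, unadjusted p = 0.0314), and without mouse 5 its difference was -0.34 (unadjusted p = 0.107). Of 7 macrophage genes tested in liver, 4 were lower at this level at D2 (background 3.79% of probes in either direction). The 7 had a median of -0.55 and a smallest adjusted p of 0.940 by limma. Their part in the Ccl6 value was not tested. Some members varied widely between mice whatever the dose. Ccl21a ran from 0.37 to 3.19 over the 19 livers with a residual SD of 0.78, and Cxcl14 from -0.25 to 1.97 with 0.77, beside a median of 0.156 over all probes.

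In forestomach, Ccl21b came nearest to the unadjusted level at D3. It was 1.99, 2.21, 1.49, 0.69 and 2.13 in D0 and 2.11, 2.15, 1.90, 2.76 and 2.87 in D3, a difference of 0.66 (SE 0.31, unadjusted p = 0.0518, adjusted p = 0.548, limma) with overlap, and 0.40 without D0 mouse 4, the lowest value. Ccl6 was 5.15, 5.70, 1.76, 2.11 and 6.32 in D0 and 5.97, 5.20, 5.07, 5.26 and 5.51 in D3. Its difference of 1.19 (SE 0.71, unadjusted p = 0.112) came from D0 mice 3 and 4, both on the dimmest slide, and within the slides it was -0.62, 0.43 and 3.14. The next were Ccl25 at -0.36 (SE 0.26, unadjusted p = 0.178), which turned to 0.02 with array medians centred, Cxcl9 at -0.26 (SE 0.19) and Ccl27a at 0.37 (SE 0.31).

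Cxcl17 was either present or absent in forestomach. It was -0.14, 4.83, 3.85, -0.28 and 4.03 in D0, 0.01, -0.05, 3.85, -0.01 and 3.77 in D1, 4.21, 5.10, 3.30 and 3.06 in D2, and 0.04, -0.13, 0.14, 5.29 and -0.06 in D3. The high and low values occurred in D0, D1 and D3 alike, and D2 had high values only. The arrays fell apart in the same way by 10 genes of glandular stomach. On the 10 arrays where the mean of these genes was 5.28 to 6.94, Cxcl17 was 3.06 to 5.29 (median 3.94) and above background each time. On the 9 where it was 0.29 to 2.11, Cxcl17 was -0.28 to 0.14 (median -0.05) and never above background. The first kind numbered 3 of 5 in D0, 2 of 5 in D1, 4 of 4 in D2 and 1 of 5 in D3. The D3 difference in Cxcl17 was -1.40 (SE 1.23, unadjusted p = 0.270, adjusted p = 0.806), and -0.20 (SE 0.26) once the mean of the glandular genes entered the fit.

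**Figure D5:**
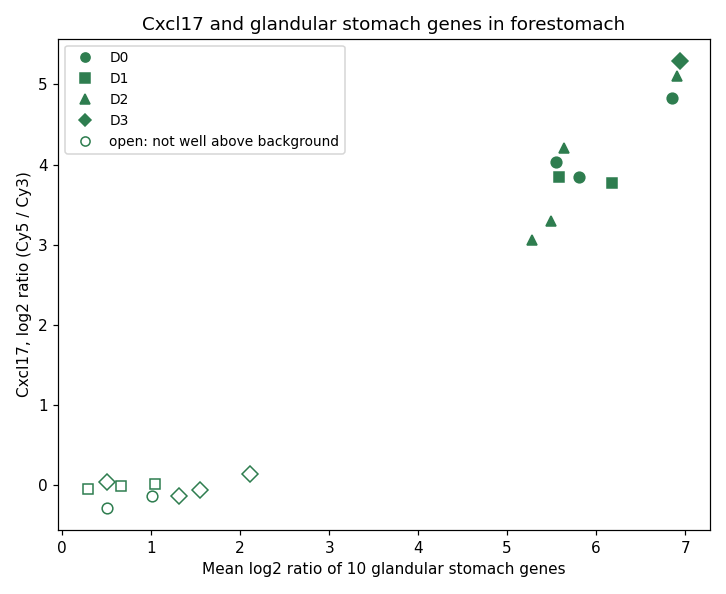
Log2 ratio of Cxcl17 in each of 19 forestomachs (vertical axis) against the mean log2 ratio of 10 glandular stomach genes (horizontal axis), with marker shape by dose and open markers for arrays not well above background. The 10 arrays above 5 on the horizontal axis all have Cxcl17 between 3.06 and 5.29, and the 9 others lie between -0.28 and 0.14.

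Cxcl14 had a median of 1.81 (0.83 to 2.68) on the 10 arrays and 0.62 (-0.15 to 1.86) on the 9 others, and Cxcl16 had 0.63 (0.24 to 2.10) and 0.10 (-0.32 to 0.39). Both also differed by slide, with means on slides 1 to 3 of 2.10, 0.83 and 0.85 for Cxcl14 and 1.05, 0.20 and 0.14 for Cxcl16. Slide 1, the brightest, held 5 of the 10 arrays and 2 of the 9 others. With the glandular mean in the fit, the D3 difference of Cxcl14 was 0.81 (SE 0.33, unadjusted p = 0.0235, adjusted p = 0.257) and that of Ccl21b 0.75 (SE 0.31, unadjusted p = 0.0299, adjusted p = 0.286). Ccl27a was 0.56 (unadjusted p = 0.0422) and Ccl25 was -0.49 (unadjusted p = 0.0465). Residual SDs in forestomach were 2.11 for Cxcl17, 1.32 for Ccl4 and 1.22 for Ccl6, beside a median of 0.280 over all probes.

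Genes that act with the chemokines also gave no call. Of 18 chemokine receptors, 15 were tested in lung, 7 in liver and 8 in forestomach, and 0 were called at any dose. With an unadjusted p of 0.05 or less as the level, 1 receptor was higher and 3 were lower in lung at D3 (background 6.05 and 10.1% of probes). The 5 atypical receptors, the 13 inflammatory cytokines (8, 3 and 3 tested), the 12 interferon-response genes and the platelet chemokines Ppbp and Pf4 had 0 calls in each tissue. At D3 the interferon-response genes had medians of -0.23 in lung, -0.05 in liver and -0.41 in forestomach, with 1, 0 and 2 of them lower with an unadjusted p of 0.05 or less (background 10.1, 2.33 and 3.79%).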

How the data were processed

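RNA of 56 tissues was hybridised to 2-colour Agilent arrays, sample in Cy5 and reference in Cy3. The authors normalized the median signals by LOWESS without background subtraction and deposited log2 ratios, which were used as given. Cy5 and Cy3 intensities and background flags came from the deposited scanner files, whose ratios under a loess run here correlated with the authors' at 0.977 to 0.998. The number of arrays limits the precision.

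Control spots (3671) were dropped and spots of a probe averaged, leaving 55681 probes. RefSeq accessions named 26413 of these (47.4%). Probes were tested by limma 3.58.1 in R 4.3.3 per tissue (4 dose groups, or a trend over dose steps) and over all arrays for tissues. P-values were adjusted by Benjamini-Hochberg. The methods named MAANOVA, for which limma stood in. Replicates were mice, shared between tissues: same-mouse deviations had median correlations of 0.12, 0.02 and 0.06 for lung with liver, lung with forestomach and liver with forestomach. Members, roles and lists were chosen with earlier results of these data known. Genes were named where they had the lowest p, the largest tissue difference or the largest single-mouse deviation. Alternatives were own loess, median centring, normexp, filters, slide, marker covariates and leaving out mice.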

Additional observations from a re-analysis of the deposited data

Results flagged for a closer look

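In groups of 4 or 5 mice, a value was picked out where its gap to the nearest mouse took an unusually large part of the range of its group. Over all tested members, 271 groups were examined and 16 had such a value, where chance gives about 1 in 20. In lung D0, mouse 5 had Ccl12 at 1.79 (next 0.22) and Cxcl10 at 0.06 (next -1.67). In lung D1, mouse 9 had Cxcl1 at -2.95 (next -4.11) and Ccl7 at -3.75 (next -4.46), and mouse 6 had Ccl8 at 1.72 (next 1.07). In lung D3, mouse 19 had Ccl19 at 5.30 (next 2.06), Cxcl9 at 1.67 (next 0.53) and Xcl1 at 1.09 (next 0.53), and mouse 17 had Ccl9 at 1.06 (next -0.09). In liver D0, Ccl21a was 3.19 in mouse 3 (next 1.52) and Cxcl14 was 1.74 in mouse 2 (next 0.64). In liver D2, Cxcl1 was -1.29 in mouse 15 (next -1.88). In forestomach D1, Cxcl9 was 0.83 in mouse 10 (next 0.08). In forestomach D3, Cxcl17 was 5.29 and Cxcl16 1.45 in mouse 19 (next 0.14 and 0.39), the 1 array of that group with high glandular stomach genes. Ccl8 was -0.11 in mouse 18 there, below the next at 1.47.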

How the results depend on the processing

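Counts of 0 members called at each dose, for the trend and for the difference of D3 effects between tissues held under every alternative tried and with each mouse left out (0 to 0). Between tissues, leaving out 1 mouse gave 15 members higher in lung and 9 to 10 in liver, 14 in lung and 6 to 7 in forestomach, and 7 to 8 in liver and 10 to 11 in forestomach. With the replicate block (mouse) these counts were 15 and 10, 14 and 6, and 8 and 10, so the pairing changed none. Higher in liver than lung were 6 members with own loess (18.8% of all probes), 2 with median centring (6.29%) and 5 in vehicle mice alone (21.1%). Higher in lung than forestomach were 25 with median centring (62.8%), and higher in forestomach were 1 with median centring (3.03%) and 2 on forestomach slide 1 alone (17.6%), an alternative chosen after seeing the data. Between liver and forestomach, 6 were higher in forestomach with median centring (10.1%) and 5 in liver in vehicle mice alone (19.0%). Signs turned for Ccl25 at D3 in forestomach (0.02, median centring), Ccl27a in liver against lung (-0.68, median centring) and Ccl7 in forestomach against liver (-0.41, slide 1 alone). The cause was not tested. Leaving out D0 mice 3 and 5, median centring for genes above both other tissues, and slide as a random block (consensus correlation 0.23), were also chosen after seeing the data. In lung at D3, members with an unadjusted p of 0.05 or less numbered 9 lower and 1 higher with slide as a block (11.0 and 6.20% of probes).

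The limits lie in the design. Each slide held 1 tissue, so a tissue difference carries its slides. Lung D0 arrays shared a column. With 3 to 5 mice a group, single mice set several differences. On dim forestomach arrays, low ratios such as that of Ccl4 and high ratios such as that of Ccl11 lay nearer 0.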
